A study of Homo sapiens with 18 samples.

Results

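The genes described here are 42 genes of the Wnt pathway and of the intestinal stem cell, followed by RNA sequencing in SW48 cells, a long-established line from a human colon adenocarcinoma. They were taken by name from a list. The table of 23571 named genes held 41 of them and no entry named BMI1P1. The study combined knockdown of CHD4 with siDNMT1 or decitabine, agents that lower DNA methylation, in 6 groups of 3 libraries. CHD4 is the ATP-dependent remodeler of the NuRD repressor complex, and DNMT1 is the enzyme that copies DNA methylation after replication. Decitabine is a cytidine analog that traps DNA methyltransferases on DNA.

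The cells received siCHD4 with siDNMT1, control siRNA with siDNMT1, siCHD4 with decitabine, control siRNA with decitabine, siCHD4 alone, or control siRNA alone. With siDNMT1, that siRNA was given on days 1, 3 and 5, the siCHD4 or control siRNA on days 7 and 8, and RNA came from day 11. With decitabine, the drug was given at 50 nM on days 1, 2 and 3, the siCHD4 or control siRNA on days 1 and 2, and RNA came from day 5. Without either, the siRNA was given on days 1, 3 and 6, with RNA from day 8. A siCHD4 group and its own control therefore shared a schedule. A comparison of a siDNMT1 or decitabine group with control siRNA alone also compared schedules, and treatment and schedule cannot be told apart there. The days of siCHD4 and of RNA also differed between backgrounds. In a difference between siCHD4 effects, background and schedule therefore cannot be told apart either. Nothing in the labels says that the 3 replicates of a group were separate cultures, so the p-values reflect only how these libraries vary, and that variation may be technical.

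In the canonical pathway, secreted WNT proteins bind Frizzled receptors and the co-receptors LRP5 and LRP6, which stops the AXIN, APC and GSK3B complex from marking beta-catenin (CTNNB1) for destruction. Stabilised beta-catenin joins TCF and LEF factors on DNA and switches on target genes, many of which encode inhibitors that feed back on the pathway. In the crypts of the intestine this signal maintains stem cells, which are known by genes such as LGR5, ASCL2 and SMOC2. SW48 carries an activating mutation of CTNNB1, so its pathway is active without an outside ligand.

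With siCHD4 on top of siDNMT1, 16 of the 34 genes tested rose and 5 fell, beside 24.8% and 24.6% of all genes tested. With siCHD4 on top of decitabine 2 rose and 2 fell, beside 3.26% and 1.31% of all genes. With siCHD4 alone 3 rose and 5 fell, beside 9.58% and 9.71% of all genes. The backgrounds came in the same order by the number called over all genes as over the listed genes. DCLK1, a kinase that marks tuft cells, rose in all 3 backgrounds. WNT16, the most abundant of the listed ligands in control cells, fell with siCHD4 alone and rose with siCHD4 on top of siDNMT1. The feedback inhibitors APCDD1 and NKD1 and the ligand WNT11 rose with siDNMT1 or decitabine, with no siCHD4 present. The difference between siCHD4 effects was called for 1 gene (2.94%) for siDNMT1 against alone, beside 4.12% of all genes. It was called for 3 (8.82%) for decitabine against alone, beside 1.16%, and for 3 (8.82%) for siDNMT1 against decitabine, beside 8.40%. Together these were 5 of the 34 genes, WNT16, WNT3, LRP5, CCND1 and DCLK1. A call in 1 background and not in another therefore does not by itself show a difference.

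Levels are in FPKM, fragments scaled for transcript length and library size, which allows comparison between genes. Changes are on the log2(FPKM + 1) scale, given with their standard error (SE), and this scale understates the change of low genes. A gene was tested where at least 3 libraries reached 1 FPKM, and it is called higher or lower where the Benjamini-Hochberg adjusted p of the limma model over all 12809 genes tested was below 0.05. Of the 41 genes found, 34 were tested. The other 7, WNT2B, WNT4, WNT5A, WNT6, WNT10A, LEF1 and SMOC2, were low throughout. Among these, the ligand WNT10A had the highest single value, 1.16 FPKM, and the stem cell gene SMOC2 did not exceed 0.0889 FPKM. WNT5A was listed at 0 in all libraries except siCHD4 with siDNMT1 replicates 0 and 2. Where 3 values are given for a group, they are those of replicates 0, 1 and 2, in that order.

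In control cells, 18 of the 41 genes averaged at least 10 FPKM, 12 lay between 1 and 10 FPKM, and 11 lay under 1 FPKM. AXIN2, the negative-feedback scaffold of the destruction complex, was highest, at 233 ± 3.23 FPKM (SD, n = 3). CTNNB1 followed at 175 ± 6.01 FPKM and CCND1, encoding cyclin D1, at 168 ± 18.8 FPKM, and the libraries of these genes overlapped. MYC, the growth-driving transcription factor, averaged 112 ± 7.64 FPKM and NOTUM, the secreted enzyme that removes the lipid from WNT proteins, 110.2 ± 17.0 FPKM, again with overlapping libraries. FZD7 (50.5 ± 10.4 FPKM) was the highest receptor and WNT16 (49.2 ± 3.43 FPKM) the highest ligand. LGR5, the R-spondin receptor of intestinal stem cells, averaged 6.94 ± 2.05 FPKM, while ASCL2, DCLK1 and APCDD1 were all under 1 FPKM. DCLK1 and APCDD1 passed the filter on low values only through groups in which they were higher. Their tests and the counts over the tested genes are therefore descriptions.

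**Figure D1:**
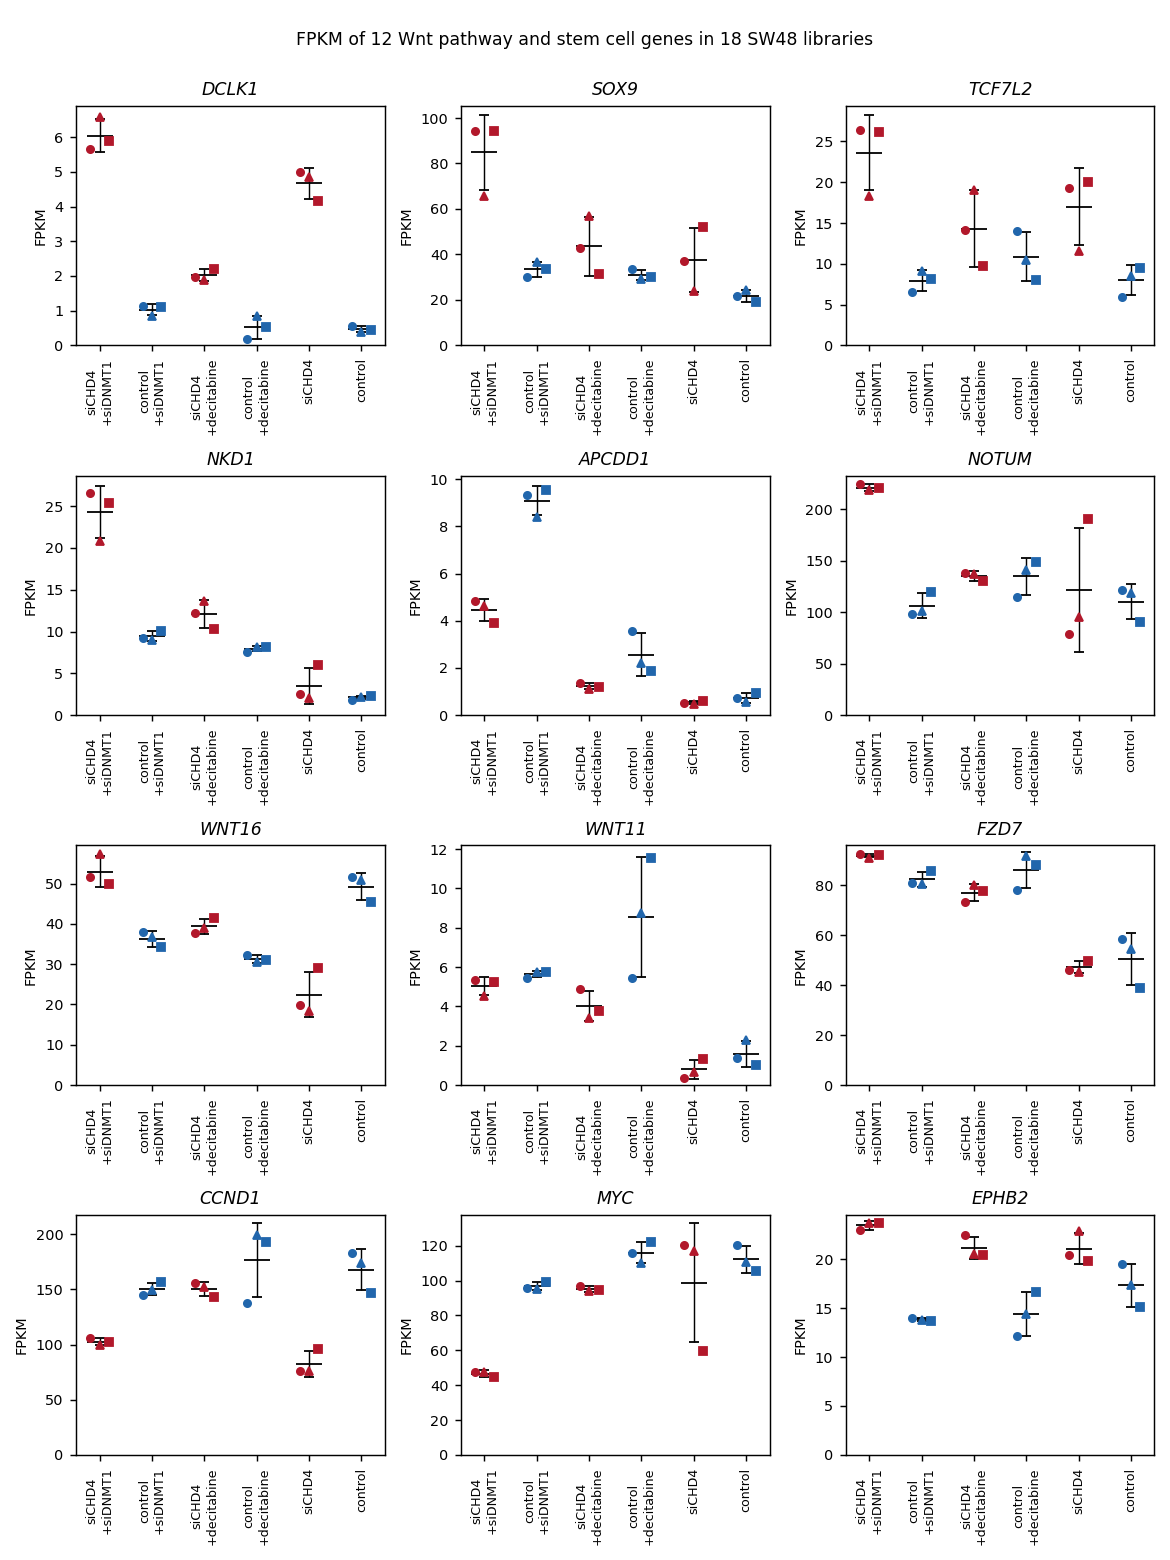
FPKM of 12 of the genes in the 18 libraries, on linear axes from 0, with 1 panel per gene and the 6 groups along the horizontal axis. Circles, triangles and squares are replicates 0, 1 and 2, and horizontal marks and bars show the mean and SD; NKD1, APCDD1 and WNT11 lie lowest in the 2 groups without siDNMT1 or decitabine, and DCLK1 is above its control in each siCHD4 group.

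The knockdowns were visible in the targeted genes. CHD4 averaged 28.4 ± 1.12 FPKM in siCHD4 with siDNMT1 and 68.2 ± 5.19 FPKM in its control. It averaged 54.9 ± 2.06 FPKM in siCHD4 with decitabine and 76.2 ± 8.17 FPKM in its control, and 31.3 ± 7.87 FPKM in siCHD4 alone and 62.8 ± 4.78 FPKM in control siRNA alone. The residual level was thus 41.6%, 72.1% and 49.9% of the matching control. With decitabine the libraries did not overlap, but the limma call was missed (adjusted p = 0.0752). It was made without replicate 0 (adjusted p = 0.0279) or replicate 2 (adjusted p = 0.00749) of siCHD4 alone. These libraries lie outside this comparison, and the log2 change stayed at -0.46 without either. The call was also made without replicate 0 of control siRNA with decitabine (adjusted p = 0.0449). DNMT1 fell to 27.6% of its level, with 12.3 ± 1.15 FPKM in control siRNA with siDNMT1 and 44.7 ± 0.892 FPKM in control siRNA alone. The exact two-sided permutation test of each of these 4 pairs of groups gave p = 0.1, the smallest that 3 libraries against 3 allow.

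3 libraries stood apart from the others of their groups. Replicate 2 of siCHD4 alone lay at least 0.5 on the log2 scale outside the other siCHD4 libraries for 8 of the 34 genes (23.5%) and for 16.7% of all genes tested. Replicate 0 of control siRNA with decitabine did so for 14.7% of these genes and 21.3% of all genes. In it 1 fragment was worth an estimated 4.11 times as many FPKM as in control replicate 0, the most of any library. The estimate is from genes under 1 FPKM and does not separate depth from scaling between libraries. Replicate 2 of control siRNA alone stood apart in the same way for 5.88% of these genes and 5.82% of all genes. Without the decitabine library, 6 listed genes were higher and 5 lower with siCHD4 alone (12.8% and 14.1% of all genes). The counts were then 2 and 2 with siCHD4 and decitabine (3.75% and 1.26% of all genes). With siCHD4 and siDNMT1 they were 16 and 5 (27.4% and 28.5% of all genes). Without the control library, 3 were higher and 7 lower with siCHD4 alone (8.43% and 8.06% of all genes). With siCHD4 and siDNMT1, 15 were then higher and 5 lower (24.8% and 24.4% of all genes). The counts without the siCHD4 library are given with the description of that library.

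Of the colon epithelial markers, EPCAM (131 to 279 FPKM), KRT8 and CDX2 were high in all libraries, but CDX1 and LGALS4 did not reach 1 FPKM. The summed level of the 12 epithelial markers was 1063 to 1104 FPKM in siCHD4 with siDNMT1 against 1805 to 1884 FPKM in its control, and 1200.4 to 1370 FPKM in siCHD4 alone against 2022 to 2135 FPKM in control siRNA alone. With decitabine it was 1446 to 1504 FPKM with siCHD4 and 1889 to 2464 FPKM with control siRNA. KRT8 and KRT18 made up 56.5% to 89.3% of this sum. They were the 2 markers of the 12 with all libraries lower in siCHD4 with siDNMT1 than in its control, while CDH1, KRT19, CDX2, VIL1, CEACAM6 and ELF3 had all libraries higher. CDX2 was 64.6 to 68.8 FPKM there against 42.9 to 46.6 FPKM, at least 54.7 FPKM in siCHD4 with decitabine against at most 50.9 FPKM, and 47.4 to 71.0 FPKM in siCHD4 alone against 31.1 to 43.6 FPKM. The summed level of 9 fibroblast markers was 14.2 to 16.0 FPKM in siCHD4 with siDNMT1 against 3.99 to 4.11 FPKM in its control, 5 of the markers staying under 1 FPKM and COL3A1 at 0 in all libraries. LUM was the highest of the 9 in both groups, averaging 10.0 FPKM and 3.45 FPKM. COL1A1, DCN, LUM, PDGFRB and THY1 had all libraries higher there than in the control, and no marker had all lower. In siCHD4 with decitabine the fibroblast sum was 6.79 to 7.70 FPKM against 0.624 to 3.90 FPKM, and in siCHD4 alone 0.414 to 3.80 FPKM against 0.121 to 0.490 FPKM. The summed 9 blood cell markers were 6.35 to 7.71 FPKM in siCHD4 with siDNMT1 against 2.18 to 3.63 FPKM in its control, CD3D and HBB being at 0 throughout. With decitabine they were 4.38 to 4.87 FPKM with siCHD4 against 3.51 to 5.90 FPKM, and without either agent they reached 2.89 FPKM with siCHD4 against 2.51 FPKM in control siRNA alone, with overlap. The 6 endothelial markers, each under 1 FPKM, summed to 0.998 to 1.03 FPKM in siCHD4 with siDNMT1 against 0.217 to 0.258 FPKM, to 0.445 to 0.620 FPKM with decitabine against 0 to 0.283 FPKM, and to 0.258 to 0.326 FPKM in siCHD4 alone against 0.110 to 0.190 FPKM. The 6 neural and glial markers, of which SYT1 alone reached 1 FPKM (1.48 to 7.52 FPKM), summed to 7.81 to 8.11 FPKM in siCHD4 with siDNMT1 against 5.36 to 6.17 FPKM. With decitabine they summed to 3.20 to 4.43 FPKM against 1.81 to 3.56 FPKM, and in siCHD4 alone to 3.36 to 7.34 FPKM against 2.74 to 4.19 FPKM. With siDNMT1 the fibroblast, blood, endothelial and neural sums were thus all higher in the siCHD4 libraries, without overlap. The part of these markers in the results was not tested, and fewer cells of a type and less RNA per cell cannot be told apart in bulk RNA.

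Because siDNMT1 and decitabine act on DNA methylation, promoter sequences are shown for 3 genes that had an entry in the RefSeq promoter table (GRCh38.p14). Of these, only APCDD1 rose with both agents without siCHD4. WNT16 fell with both, and DCLK1 is shown for its rise with siCHD4. NKD1 and WNT11, which also rose with both agents, had no entry. Each window holds 300 bases that end 50 bases after an annotated start, 5′ to 3′ on the gene's strand, with CG dinucleotides, the sites of DNA methylation, in capitals. The windows are APCDD1 at chr18:10454385-10454684 (plus strand), WNT16 at chr7:121328750-121329049 (plus strand) and DCLK1 at chr13:36131333-36131632 (minus strand).
APCDD1: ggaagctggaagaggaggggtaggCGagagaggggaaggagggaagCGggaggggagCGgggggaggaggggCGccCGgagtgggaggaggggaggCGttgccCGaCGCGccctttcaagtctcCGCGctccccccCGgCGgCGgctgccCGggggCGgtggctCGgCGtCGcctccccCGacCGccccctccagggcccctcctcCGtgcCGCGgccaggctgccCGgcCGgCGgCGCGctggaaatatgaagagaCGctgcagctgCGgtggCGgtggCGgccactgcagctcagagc
WNT16: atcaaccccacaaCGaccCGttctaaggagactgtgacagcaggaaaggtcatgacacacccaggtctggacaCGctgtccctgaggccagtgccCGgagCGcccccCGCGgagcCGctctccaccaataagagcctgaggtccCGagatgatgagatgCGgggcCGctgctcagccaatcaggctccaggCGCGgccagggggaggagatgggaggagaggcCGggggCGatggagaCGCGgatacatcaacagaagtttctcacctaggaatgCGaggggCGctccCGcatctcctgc
DCLK1: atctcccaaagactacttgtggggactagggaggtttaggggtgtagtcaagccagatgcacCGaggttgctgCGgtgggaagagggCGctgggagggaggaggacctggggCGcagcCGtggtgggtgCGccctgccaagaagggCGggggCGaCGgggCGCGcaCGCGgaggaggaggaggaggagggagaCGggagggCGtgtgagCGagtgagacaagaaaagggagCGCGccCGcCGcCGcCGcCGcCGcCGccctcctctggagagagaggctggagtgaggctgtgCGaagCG
They hold 33, 20 and 27 CG dinucleotides. Across the 35116 windows of the table the median was 14, with quartiles of 4 and 28. The 41 windows of the 26 listed genes that had an entry held 0 to 52 CG, with a median of 26. DCLK1 has 2 other windows in the table, with 2 CG (chr13:36131890-36132189) and 5 CG (chr13:35855618-35855917), both on the minus strand.

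The core letters that TCF and LEF factors recognise, CTTTGAT, searched on both strands, occurred in 2.62% of all windows. Among these genes they occurred in 1 window of DCLK1 and 1 of PROM1, the gene of the stem cell surface protein CD133. The DCLK1 window is the one with 5 CG, and it is shown with the match in capitals.
DCLK1, window with the match: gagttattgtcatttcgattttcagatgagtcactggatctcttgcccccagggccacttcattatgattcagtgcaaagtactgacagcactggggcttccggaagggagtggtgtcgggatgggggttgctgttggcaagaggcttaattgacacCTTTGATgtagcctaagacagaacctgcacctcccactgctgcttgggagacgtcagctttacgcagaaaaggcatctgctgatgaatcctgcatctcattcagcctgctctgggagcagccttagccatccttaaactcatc
A match describes the letters only, and no methylation or binding was measured here.

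Of the secreted ligands, WNT16, WNT3, WNT7B and WNT11 were tested. WNT16 (chr7:120965421-120981158, GRCh37, plus strand), a ligand mostly studied in bone and hematopoiesis, had 20.0, 18.5 and 29.0 FPKM in siCHD4 alone, against 51.6, 50.9 and 45.3 FPKM in control siRNA alone. In siCHD4 with siDNMT1 it had 51.5, 57.4 and 50.0 FPKM, against 38.0, 36.6 and 34.2 FPKM in control siRNA with siDNMT1. In siCHD4 with decitabine it had 37.8, 38.9 and 41.4 FPKM, against 32.3, 30.4 and 31.1 FPKM in control siRNA with decitabine. All siCHD4-alone libraries lay below their controls, and all libraries of siCHD4 with siDNMT1 or decitabine lay above theirs. The log2 change was -1.12 (SE 0.12, adjusted p = 2.96e-05) with siCHD4 alone and 0.53 (SE 0.12, adjusted p = 0.00255) with siDNMT1. With decitabine it was 0.32 (SE 0.12) and not called (adjusted p = 0.165). The siCHD4 effect differed from that of siCHD4 alone by 1.65 (SE 0.17, adjusted p = 3.23e-05) with siDNMT1 and by 1.44 (SE 0.17, adjusted p = 0.000547) with decitabine. Both tests use the same siCHD4-alone and control libraries, and both also compare schedules of siCHD4. WNT16 was the only one of the 34 genes for which the difference between siDNMT1 and alone was called, and 4.12% of all genes were called there.

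WNT3, a canonical ligand that Paneth cells supply to mouse intestinal stem cells, had 4.60, 4.51 and 4.04 FPKM in siCHD4 with siDNMT1, against 2.72, 2.64 and 1.69 FPKM in its control. WNT7B, another canonical ligand, had 1.65, 1.16 and 1.65 FPKM, against 0.555, 0.519 and 0.969 FPKM. Neither pair of groups overlapped, with log2 changes of 0.70 (SE 0.20, adjusted p = 0.00893) for WNT3 and 0.57 (SE 0.16, adjusted p = 0.00758) for WNT7B. In siCHD4 with decitabine WNT3 had 2.79, 2.36 and 1.92 FPKM, against 4.14, 2.16 and 3.05 FPKM, and these groups overlapped. The siCHD4 effect on WNT3 was 0.97 higher with siDNMT1 than with decitabine (SE 0.28, adjusted p = 0.0450), a call that was lost when any of 13 single libraries was left out.

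WNT11, a ligand of noncanonical signalling, had 5.44, 5.73 and 5.76 FPKM in control siRNA with siDNMT1 and 5.43, 8.73 and 11.5 FPKM in control siRNA with decitabine, against 1.38, 2.28 and 1.00 FPKM in control siRNA alone. All 6 treated libraries were above the controls. The log2 change was 1.41 with siDNMT1 (SE 0.24, adjusted p = 0.000894) and 1.88 with decitabine (SE 0.24, adjusted p = 5.74e-05). With siCHD4 added, WNT11 had 5.35, 4.50 and 5.22 FPKM with siDNMT1 and 4.89, 3.39 and 3.78 FPKM with decitabine. The groups with and without siCHD4 did not overlap under decitabine, with a log2 change of -0.89 (SE 0.24, adjusted p = 0.0435). That call was lost when any of 13 single libraries was left out, and siCHD4 alone gave 0.361, 0.674 and 1.34 FPKM. Of the exon bases of WNT11, 8.60% overlap an annotated gene on the opposite strand, and whether strand was used in counting is not given in the sources used here.

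Among the receptors, FZD1 and FZD6 fell with siCHD4 alone and LRP5 rose with siCHD4 on top of siDNMT1. FZD1, a Frizzled receptor, had 3.06, 3.04 and 4.08 FPKM in siCHD4 alone, against 5.36, 5.55 and 4.83 FPKM in control siRNA alone, with no overlap (log2 change -0.51, SE 0.12, adjusted p = 0.00881). FZD6, a Frizzled receptor of planar cell polarity, had 14.4, 14.0 and 23.1 FPKM, against 27.5, 28.3 and 21.8 FPKM. Its siCHD4 replicate 2 lay above control replicate 2, so the groups overlapped, with a log2 change of -0.59 (SE 0.17, adjusted p = 0.0220). The FZD6 call was lost without siCHD4 replicate 0 or 1 or control replicate 0 or 1, and the change without siCHD4 replicate 2 was -0.81 (adjusted p = 0.00138).

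LRP5, the co-receptor, had 38.3, 31.7 and 39.3 FPKM in siCHD4 with siDNMT1, against 20.6, 18.6 and 22.2 FPKM in its control. In siCHD4 with decitabine it had 27.3, 27.2 and 22.2 FPKM, against 24.6, 21.8 and 23.2 FPKM. The siDNMT1 groups did not overlap, whereas the decitabine groups did. The log2 change with siDNMT1 was 0.80 (SE 0.12, adjusted p = 8.74e-05), and the siCHD4 effect was 0.67 higher there than with decitabine (SE 0.17, adjusted p = 0.0285). That difference was no longer called when any of 5 single libraries was left out. FZD7 was not called in any siCHD4 comparison within a background, and it rose without siCHD4, to 82.3 ± 2.86 FPKM with siDNMT1 and 86.1 ± 7.14 FPKM with decitabine, against 50.5 ± 10.4 FPKM in control siRNA alone. The changes were 0.71 (SE 0.12, adjusted p = 0.000689) and 0.77 (SE 0.12, adjusted p = 0.000298).

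Of beta-catenin and its destruction complex, GSK3B alone was called in a siCHD4 comparison. GSK3B, the kinase that phosphorylates beta-catenin, had 22.4, 18.4 and 22.3 FPKM in siCHD4 with siDNMT1, against 12.4, 13.3 and 12.5 FPKM in its control. The groups did not overlap, and the log2 change was 0.68 (SE 0.18, adjusted p = 0.00597). CTNNB1 ranged from 160.5 to 205 FPKM over all 18 libraries. Its siCHD4 changes were 0.12 with siDNMT1 and 0.05 in each of the other 2 backgrounds (SE 0.07 each), and none was called. AXIN1, the constitutive scaffold of the complex, was also not called in the 3 siCHD4 comparisons.

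Of the 7 feedback inhibitors, 4 rose (57.1%) and 1 fell (14.3%) in siCHD4 with siDNMT1, beside 24.8% and 24.6% of all genes. NKD1 (chr16:50582307-50683160, GRCh37, plus strand), a Dishevelled-binding antagonist, had 26.6, 20.8 and 25.4 FPKM in siCHD4 with siDNMT1, against 9.17, 8.97 and 10.1 FPKM in control siRNA with siDNMT1. It had 12.3, 13.6 and 10.4 FPKM in siCHD4 with decitabine, against 7.57, 8.19 and 8.11 FPKM in control siRNA with decitabine. It had 2.50, 2.05 and 6.01 FPKM in siCHD4 alone, against 1.86, 2.20 and 2.30 FPKM in control siRNA alone. All 12 libraries with siDNMT1 or decitabine exceeded all 6 without. The siCHD4 change was called with siDNMT1 (1.27, SE 0.22, adjusted p = 0.000277) and not with decitabine (0.54, SE 0.22, adjusted p = 0.186) or alone (0.44, SE 0.22, adjusted p = 0.173). Against control siRNA alone, NKD1 was 1.74 higher with siDNMT1 (SE 0.22, adjusted p = 5.52e-05), 1.52 higher with decitabine (SE 0.22, adjusted p = 0.000209) and 3.01 higher with siCHD4 and siDNMT1 together (SE 0.22, adjusted p = 3.11e-08).

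APCDD1 (chr18:10454632-10489946, GRCh37, plus strand), a membrane protein that binds WNT and LRP proteins and inhibits signalling, had 9.35, 8.41 and 9.52 FPKM in control siRNA with siDNMT1 and 3.59, 2.21 and 1.87 FPKM in control siRNA with decitabine. Control siRNA alone had 0.733, 0.540 and 0.960 FPKM, below all of these. Its rise of 2.54 with siDNMT1 (SE 0.14, adjusted p = 8.87e-09) was the largest change of any of these genes in that comparison, and it rose by 1.00 with decitabine (SE 0.14, adjusted p = 0.000215). With siCHD4 added it was lower, at 4.83, 4.61 and 3.93 FPKM with siDNMT1 and 1.36, 1.10 and 1.22 FPKM with decitabine. Neither pair overlapped, with siCHD4 changes of -0.89 (SE 0.14, adjusted p = 0.000183) and -0.65 (SE 0.14, adjusted p = 0.0161), the second lost without siCHD4 with decitabine replicate 1 or 2. With siCHD4 alone it had 0.527, 0.492 and 0.606 FPKM (log2 change -0.17, SE 0.14, adjusted p = 0.435). APCDD1 passed the filter on low values only through libraries with siDNMT1 or decitabine, so its tests are descriptions.

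AXIN2 had 448, 442 and 444 FPKM in siCHD4 with siDNMT1, against 271, 277 and 305 FPKM in its control (log2 change 0.64, SE 0.11, adjusted p = 0.000345). NOTUM had 225, 218 and 220.2 FPKM, against 98.3, 101 and 120.0 FPKM (log2 change 1.05, SE 0.23, adjusted p = 0.00160). Neither pair overlapped. In siCHD4 alone replicate 2 set itself apart for both genes, with AXIN2 at 244, 245 and 353 FPKM against 229.6, 232 and 236 FPKM in control siRNA alone, and NOTUM at 78.5, 95.8 and 190.3 FPKM against 121, 119 and 90.6 FPKM. ZNRF3, a ubiquitin ligase that removes Frizzled receptors, fell with siCHD4 alone, with 27.9, 22.8 and 27.2 FPKM against 40.7, 40.6 and 35.2 FPKM and no overlap (log2 change -0.57, SE 0.12, adjusted p = 0.00409). RNF43, the related ligase, rose by 0.42 with siCHD4 and siDNMT1 (SE 0.08, adjusted p = 0.000689). Its rise of 0.24 with siCHD4 alone (SE 0.08, adjusted p = 0.0459) was lost when any of 14 single libraries was left out, siCHD4 replicate 2 among them. Of its exon bases, 68.4% overlap another annotated gene on the same strand, as do 25.3% of those of AXIN2, so their levels are uncertain. NKD2, the relative of NKD1, was not called in a siCHD4 comparison within a background.

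Among the transcription factors and target genes, TCF7 and TCF7L2 rose and MYC and CCND1 fell in siCHD4 with siDNMT1. TCF7L2, the main TCF partner of beta-catenin in the intestine, had 26.4, 18.3 and 26.2 FPKM, against 6.53, 9.16 and 8.14 FPKM in its control. In siCHD4 alone it had 19.4, 11.6 and 20.1 FPKM, against 5.99, 8.54 and 9.48 FPKM in control siRNA alone. In both backgrounds the siCHD4 libraries lay above all controls, and replicate 1 was the lowest siCHD4 library. The log2 change was 1.46 (SE 0.26, adjusted p = 0.000390) with siDNMT1 and 0.98 (SE 0.26, adjusted p = 0.0163) alone. The call with siCHD4 alone was lost without siCHD4 replicate 0, siCHD4 replicate 2 (0.85, adjusted p = 0.0612) or control replicate 0. With decitabine TCF7L2 had 14.2, 19.1 and 9.73 FPKM with siCHD4, against 14.1, 10.5 and 8.06 FPKM with control siRNA, which overlapped. TCF7, which encodes the factor TCF1, had 13.6, 10.6 and 14.5 FPKM in siCHD4 with siDNMT1, against 5.79, 7.24 and 7.50 FPKM, with no overlap (log2 change 0.82, SE 0.18, adjusted p = 0.00155).

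MYC had 47.6, 47.7 and 44.6 FPKM in siCHD4 with siDNMT1, against 95.9, 94.9 and 99.3 FPKM in its control. The groups did not overlap and varied little within themselves, with a log2 change of -1.04 (SE 0.18, adjusted p = 0.000322). In siCHD4 alone MYC had 120.1, 117 and 59.5 FPKM, against 121, 111 and 106 FPKM in control siRNA alone. Replicates 0 and 1 were within the control range and replicate 2 was near the level of siCHD4 with siDNMT1. In siCHD4 with decitabine it had 96.8, 93.9 and 94.7 FPKM, against 116, 110.3 and 122 FPKM, without overlap and not called (log2 change -0.28, SE 0.18, adjusted p = 0.398).

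CCND1 had 76.4, 75.6 and 96.2 FPKM in siCHD4 alone, against 183, 174 and 147 FPKM in control siRNA alone. In siCHD4 with siDNMT1 it had 106, 99.8 and 103 FPKM, against 145, 149 and 156 FPKM. The siCHD4 libraries were below all controls in both, with log2 changes of -1.02 (SE 0.13, adjusted p = 0.000106) alone and -0.54 (SE 0.13, adjusted p = 0.00304) with siDNMT1. With decitabine it had 156, 152 and 144 FPKM with siCHD4, against 138, 199 and 193 FPKM with control siRNA, and the groups overlapped. Of the exon bases of CCND1, 10.4% overlap a gene on the opposite strand. The siCHD4 effect was 0.80 higher with decitabine than alone (SE 0.18, adjusted p = 0.0470), a call lost when any of 13 single libraries was left out.

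**Figure D2:**
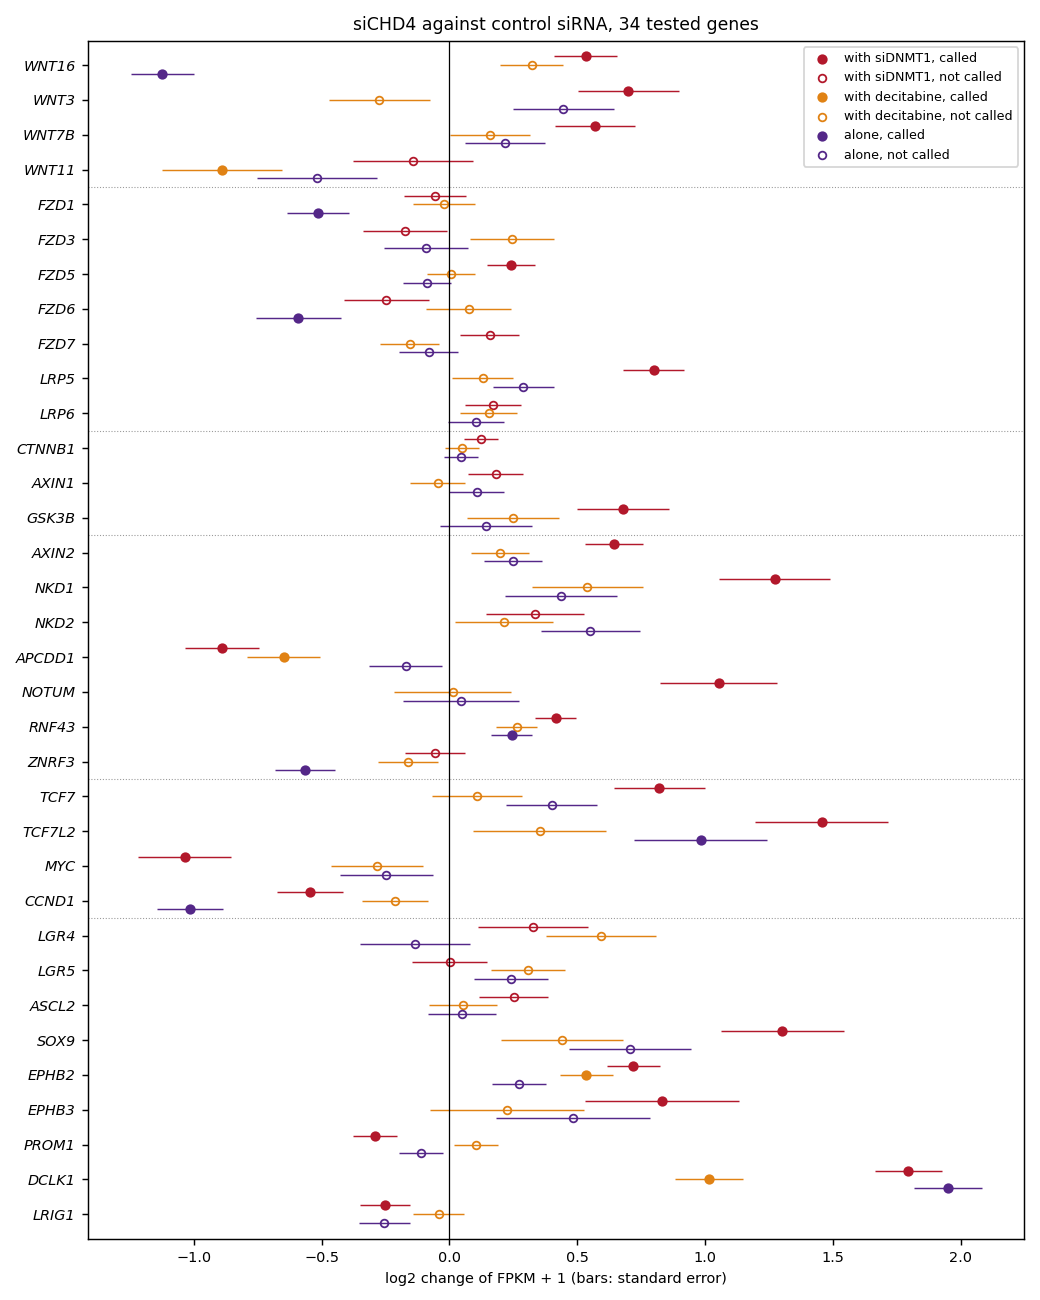
Change of the 34 tested genes with siCHD4 in the 3 backgrounds, as the difference of log2(FPKM + 1) from the matching control siRNA group, with bars of 1 SE and filled points for calls. DCLK1 lies to the right in all 3 backgrounds (1.80 with siDNMT1, 1.01 with decitabine and 1.95 alone), while WNT16 lies at 0.53 with siDNMT1 and -1.12 alone.

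Of the intestinal stem cell genes, 4 of the 9 tested rose (44.4%) and 2 fell (22.2%) in siCHD4 with siDNMT1, beside 24.8% and 24.6% of all genes. DCLK1 (chr13:36342789-36705519, GRCh37, minus strand) had 5.67, 6.58 and 5.88 FPKM in siCHD4 with siDNMT1, against 1.13, 0.859 and 1.10 FPKM in its control. It had 1.97, 1.87 and 2.21 FPKM in siCHD4 with decitabine, against 0.182, 0.838 and 0.535 FPKM, and 4.99, 4.84 and 4.16 FPKM in siCHD4 alone, against 0.556, 0.397 and 0.442 FPKM in control siRNA alone. In no background did the groups overlap. DCLK1 passed the filter on low values only through groups in which it was higher, so its tests are descriptions. The log2 change was 1.80 with siDNMT1 (SE 0.13, adjusted p = 1.29e-07), 1.01 with decitabine (SE 0.13, adjusted p = 0.000219) and 1.95 alone (SE 0.13, adjusted p = 3.08e-07), and each was called with any single library left out. The effect with decitabine was smaller than alone by 0.94 (difference -0.94, SE 0.19, adjusted p = 0.0228). It was 0.78 larger with siDNMT1 than with decitabine (SE 0.19, adjusted p = 0.0242). Residual CHD4 was also higher with decitabine, 72.1% of its control, and the siCHD4 schedules differed between backgrounds. The part of either in these differences was not tested. The calls of these differences were lost when any of 5 and any of 3 single libraries was left out, in that order.

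SOX9, a transcription factor of crypt progenitors, had 94.2, 65.9 and 94.5 FPKM in siCHD4 with siDNMT1, against 30.1, 36.6 and 33.8 FPKM in its control, with a log2 change of 1.30 (SE 0.24, adjusted p = 0.000480). With siCHD4 alone it had 36.9, 23.8 and 52.1 FPKM, against 21.7, 24.2 and 19.1 FPKM, and the call was missed (adjusted p = 0.0507). Replicate 1 was the lowest siCHD4 library in both backgrounds, and only the siDNMT1 groups were free of overlap. EPHB2, the ephrin receptor that keeps cells low in the crypt, had 23.0, 23.7 and 23.7 FPKM in siCHD4 with siDNMT1, against 14.0, 13.8 and 13.7 FPKM, and 22.5, 20.6 and 20.4 FPKM in siCHD4 with decitabine, against 12.1, 14.4 and 16.6 FPKM. Neither pair overlapped, with log2 changes of 0.72 (SE 0.10, adjusted p = 7.51e-05) and 0.54 (SE 0.10, adjusted p = 0.00681). EPHB3, its relative, had 6.60, 4.88 and 6.46 FPKM in siCHD4 with siDNMT1, against 3.10, 2.48 and 3.15 FPKM, with no overlap. The change of 0.83 (SE 0.30, adjusted p = 0.0327) was lost when any of 5 single libraries was left out.

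PROM1 fell by 0.29 (SE 0.09, adjusted p = 0.0124) in siCHD4 with siDNMT1. LRIG1, an ERBB inhibitor of crypt stem cells, fell by 0.25 (SE 0.10, adjusted p = 0.0448), a call lost in 12 of the 18 fits that left out a library, and 37.9% of its exon bases overlap a gene on the opposite strand. FZD5, a Frizzled receptor, rose by 0.24 there (SE 0.09, adjusted p = 0.0430), a call lost in 11 such fits. LGR5 was 6.19 ± 0.858 FPKM in siCHD4 with siDNMT1 and 6.15 ± 0.0362 FPKM in its control, and 8.20 ± 0.477 FPKM in siCHD4 alone and 6.94 ± 2.05 FPKM in control siRNA alone, neither pair being called. ASCL2, a stem cell transcription factor, was between 0.656 and 1.87 FPKM in all libraries and was not called in a siCHD4 comparison within a background. Together with LGR4, FZD3, FZD7, LRP6, CTNNB1, AXIN1 and NKD2 these make 9 tested genes with no siCHD4 call in any background. Their changes ran from -0.17 for FZD3 with siDNMT1 to 0.59 for LGR4 with decitabine.

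Counts over the list are given beside those over all genes. They are descriptions, since the list was chosen with earlier results of these data known. With siCHD4 and siDNMT1 16 of the 34 genes (47.1%) were higher and 5 (14.7%) lower, while 24.8% of all genes tested were higher and 24.6% lower. The median log2 change was 0.29 for the list and -0.01 for all genes. With siCHD4 alone, 3 (8.82%) were higher and 5 (14.7%) lower, beside 9.58% and 9.71% of all genes. With siCHD4 and decitabine, 2 (5.88%) were higher and 2 (5.88%) lower, beside 3.26% and 1.31% of all genes, and the list's medians in these comparisons were 0.08 and 0.12. The difference between siDNMT1 and alone was called for 1 of the 34 genes (2.94%), beside 4.12% of all genes. That between decitabine and alone was called for 3 (8.82%), beside 1.16% of all genes. That between siDNMT1 and decitabine was called for 3 (8.82%), beside 8.40% of all genes.

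With control siRNA in place of siCHD4, siDNMT1 and decitabine were each compared with control siRNA alone. With siDNMT1, 5 were higher and 3 lower than in control siRNA alone, beside 6.94% and 4.40% of all genes. With decitabine, 6 were higher and 1 lower, beside 9.60% and 8.63% of all genes. Both comparisons use the same control libraries. The higher genes with siDNMT1 were APCDD1, NKD1, WNT11, FZD7 and DCLK1, and with decitabine WNT11, NKD1, APCDD1, FZD7, NKD2 and ASCL2. DCLK1 was 0.47 higher with siDNMT1 (SE 0.13, adjusted p = 0.0320), a call lost when any of 5 single libraries was left out. WNT16 fell in both, by 0.43 with siDNMT1 (SE 0.12, adjusted p = 0.0348) and by 0.64 with decitabine (SE 0.12, adjusted p = 0.00234). Its call with siDNMT1 was lost when any of 5 single libraries was left out (adjusted p up to 0.124). With decitabine the call of NKD2 was lost without any of 3 single libraries (adjusted p up to 0.0786) and that of ASCL2 without any of 4 (adjusted p up to 0.129), control replicate 2 among them for both genes. PROM1 (-0.42) and FZD5 (-0.45) were lower with siDNMT1.

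**Figure D3:**
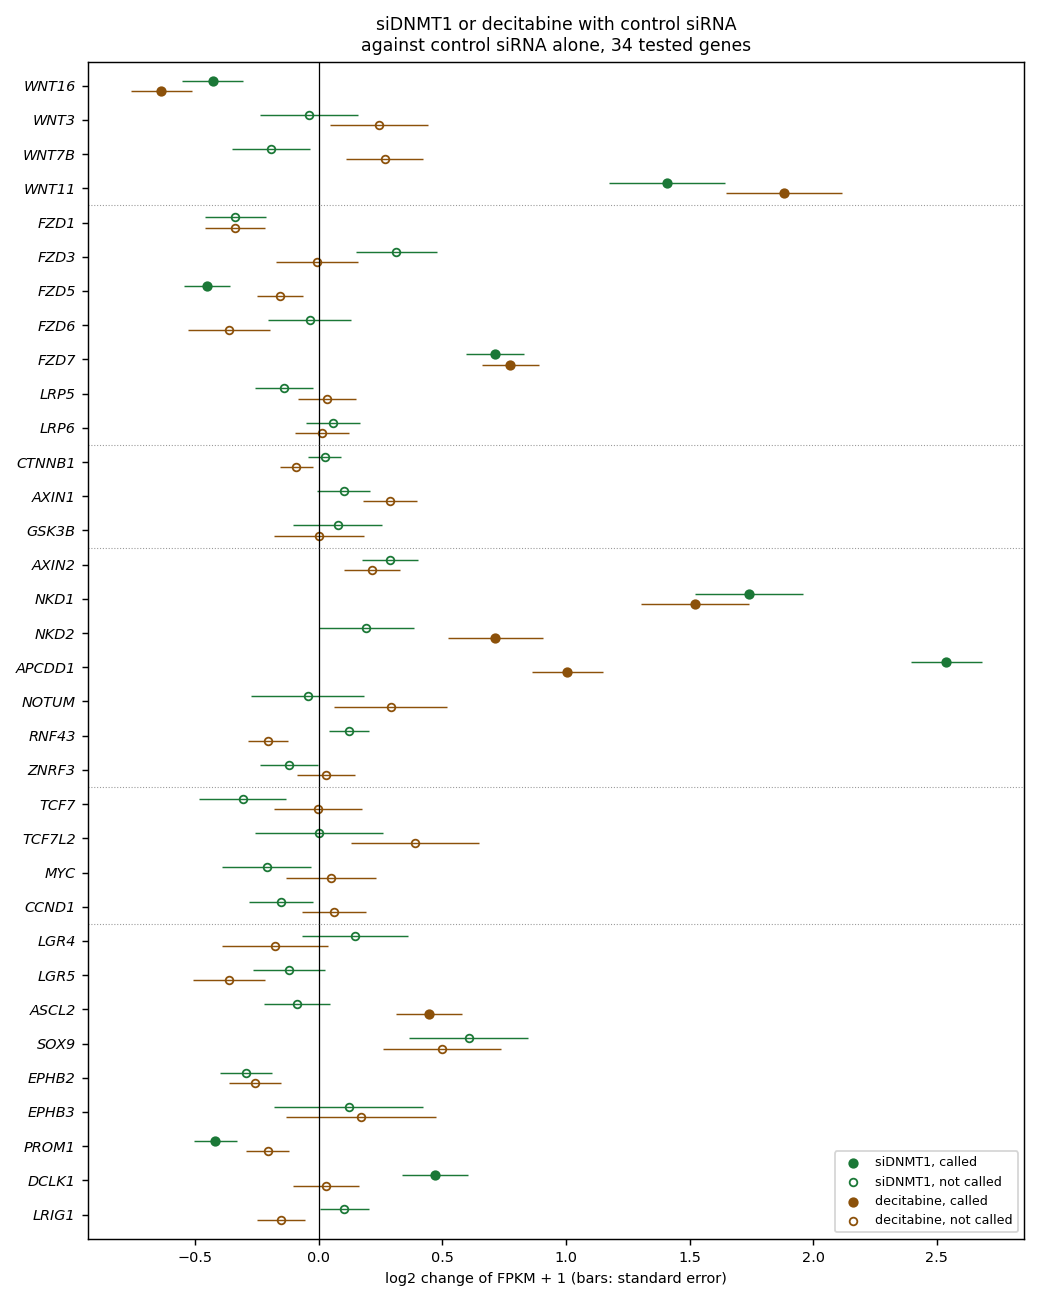
Change of the 34 tested genes with siDNMT1 or decitabine in the presence of control siRNA, as the difference of log2(FPKM + 1) from control siRNA alone, with bars of 1 SE and filled points for calls. APCDD1 lies farthest to the right with siDNMT1 (2.54) and WNT11 with decitabine (1.88), and the schedules of the groups differ.

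Against control siRNA alone, siCHD4 with siDNMT1 gave 18 higher and 4 lower genes of the 34, beside 29.3% and 29.8% of all genes. NKD1 (3.01), DCLK1 (2.27), SOX9 (1.91), APCDD1 (1.65), TCF7L2 (1.46), WNT11 (1.27) and NOTUM (1.01) rose by at least 1 on the log2 scale, and MYC (-1.25) fell by as much. The smaller falls were those of PROM1 (-0.71), CCND1 (-0.70) and FZD1 (-0.40). Against the same controls, siCHD4 with decitabine gave 10 higher and 1 lower, beside 18.0% and 16.9% of all genes. NKD1 (2.06) and DCLK1 (1.04) rose by at least 1 there, SOX9 rose by 0.94 (SE 0.24, adjusted p = 0.00723), and FZD1 fell by 0.36. The median log2 change was 0.45 with siDNMT1 and 0.24 with decitabine, beside medians of -0.002 and 0.001 over all genes.

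Replicate 2 of siCHD4 alone bears on how these backgrounds compare. CHD4 had 39.0, 31.8 and 23.2 FPKM in the siCHD4-alone libraries, and 29.0, 27.1 and 29.1 FPKM in siCHD4 with siDNMT1. Replicate 2 thus had the least CHD4 of its group, and fits without it keep the siCHD4-alone libraries with more CHD4. The part of the CHD4 level in these results was not tested. The 8 genes for which replicate 2 stood apart were WNT16, FZD6, AXIN2, NKD1, NOTUM, MYC, LGR4 and EPHB3. In all 8 it lay nearer to the mean of siCHD4 with siDNMT1 than the mean of the other siCHD4 libraries did. The same held for 29 of the 34 listed genes (85.3%), for 67.2% of all genes tested and for 82.5% of the 2142 genes tested for which it stood apart. EPHB3, for example, had 2.73, 2.81 and 7.82 FPKM in the siCHD4-alone libraries. Without this library 1 gene was higher (DCLK1) and 5 were lower with siCHD4 alone, beside 8.01% and 8.08% of all genes. The calls of TCF7L2 and RNF43 were lost. The differences between the siDNMT1 and alone backgrounds then numbered 10 higher and 2 lower genes, in place of 1 and 0. Over all 12809 genes 2557 were called without this library, in place of 528. With siCHD4 and decitabine, 5 listed genes were higher and 3 lower without it, beside 5.41% and 4.27% of all genes. With siCHD4 and siDNMT1 these counts were 16 and 5, beside 26.7% and 27.5% of all genes. The differences between siDNMT1 and alone included NOTUM (1.38, adjusted p = 0.000264), NKD1 (1.20, adjusted p = 0.000326), AXIN2 (0.57, adjusted p = 0.000760) and MYC (-1.12, adjusted p = 5.83e-06), each not called with all libraries. With all libraries these differences were 1.01 (adjusted p = 0.0977) for NOTUM, 0.84 (adjusted p = 0.149) for NKD1, 0.40 (adjusted p = 0.188) for AXIN2 and -0.79 (adjusted p = 0.102) for MYC.

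**Figure D4:**
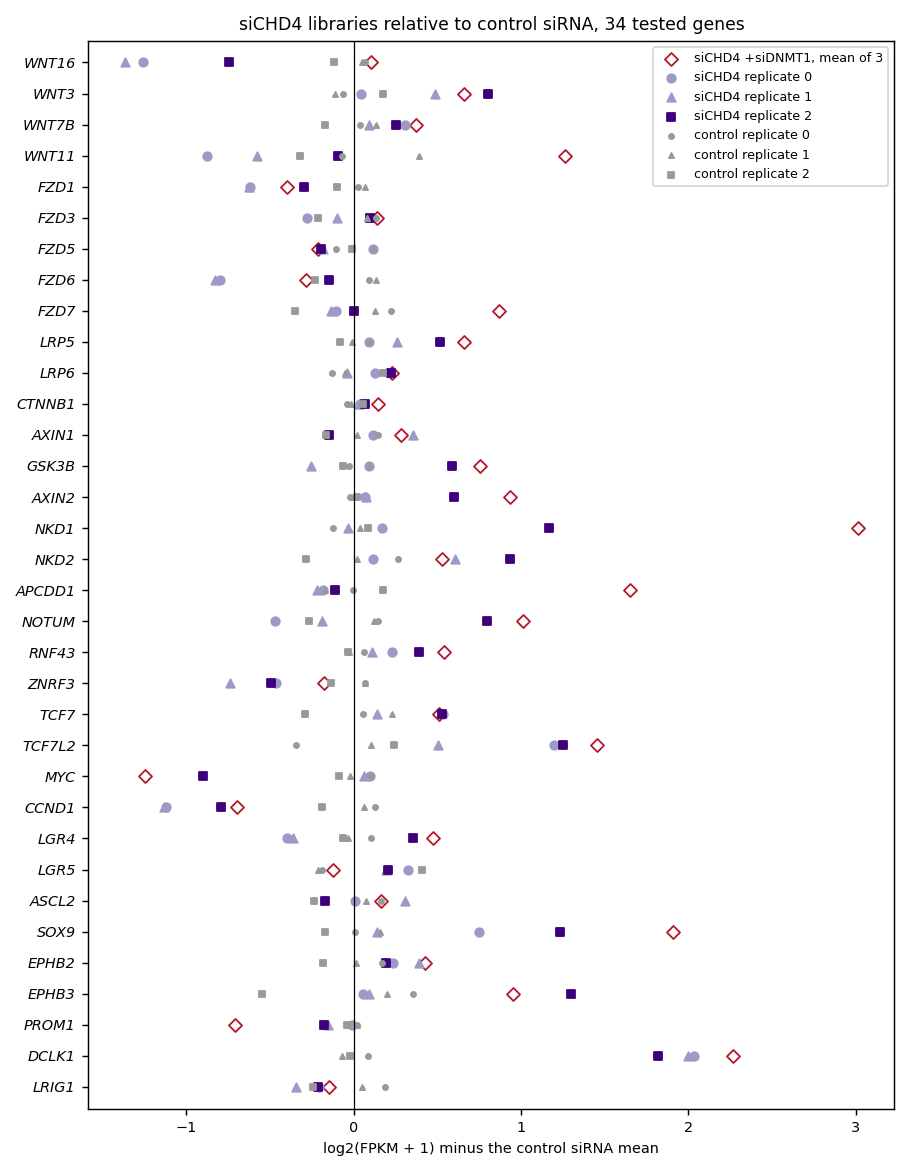
Difference of log2(FPKM + 1) from the mean of control siRNA alone for the 34 tested genes, with diamonds for the mean of siCHD4 with siDNMT1 and small grey points for the control libraries. Circles, triangles and squares are replicates 0, 1 and 2 of siCHD4 alone; the dark squares of replicate 2 lie near the diamonds for MYC (59.5 FPKM) and NOTUM (190.3 FPKM), apart from the other replicates.

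A second list held 87 other Wnt pathway genes, 55 of them tested. It was chosen with earlier results of these data known, so its counts describe these data and are not a separate test. With siCHD4 and siDNMT1, 31 (56.4%) were higher and 4 (7.27%) lower, beside 24.8% and 24.6% of all genes. With siCHD4 and decitabine 3 (5.45%) were higher and 1 (1.82%) lower, beside 3.26% and 1.31% of all genes. With siCHD4 alone 16 (29.1%) were higher and 4 (7.27%) lower, beside 9.58% and 9.71% of all genes. The medians were 0.44, 0.10 and 0.23. CD44, a cell-surface target gene of the pathway, averaged 42.2 ± 4.06 FPKM in siCHD4 with siDNMT1 and 16.7 ± 1.90 FPKM in its control (log2 change 1.29, SE 0.14, adjusted p = 5.57e-06), and it was also called with decitabine (0.77, SE 0.14, adjusted p = 0.00361). KREMEN2, a Dickkopf receptor, rose by 1.25 (SE 0.14, adjusted p = 8.28e-06), the corepressor TLE2 by 1.13 (SE 0.14, adjusted p = 1.99e-05) and PHLDB2 by 0.92 (SE 0.12, adjusted p = 4.25e-05) with siCHD4 and siDNMT1. PHLDB2 had 1.08, 1.44 and 1.26 FPKM there, against 0.217, 0.159 and 0.191 FPKM in its control. PHLDB2, like DKK1 of this list, passed the filter on low values only through siCHD4 with siDNMT1, and TLE4 passed only through siCHD4 libraries. The tests of PHLDB2 and the counts over this list are therefore descriptions. With decitabine PHLDB2 rose by 0.57 (SE 0.12, adjusted p = 0.0154), lost without siCHD4 with decitabine replicate 1, and TLE2 by 0.53 (SE 0.14, adjusted p = 0.0432), lost when any of 11 single libraries was left out.

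With siCHD4 alone DACT1, a Dishevelled-binding regulator, averaged 9.94 ± 0.853 FPKM, against 4.20 ± 0.470 FPKM in control siRNA alone (log2 change 1.07, SE 0.10, adjusted p = 8.99e-06). PYGO2, a coactivator of the beta-catenin complex, rose by 0.59 (SE 0.07, adjusted p = 0.000106). TNFRSF19, a Wnt target that marks intestinal stem cells in mouse, averaged 2.23 ± 0.137 FPKM, against 5.32 ± 0.926 FPKM (log2 change -0.96, SE 0.14, adjusted p = 0.000385). CSNK1E, the casein kinase that phosphorylates Dishevelled, fell by 0.51 with siCHD4 alone (SE 0.08, adjusted p = 0.000880) and by 0.49 with decitabine (SE 0.08, adjusted p = 0.00277).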

How the data were processed

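The authors' deposited table gives FPKM, 1 column per library for 18 libraries in 6 groups of 3. Per the submitters' processing notes, TopHat2 2.0.9, Cuffdiff 2.1.1 and the build hg19 were used. Not given in the sources used here are the gene annotation, the use of strand in counting and how libraries were scaled. Per the labels' protocols, RNA came from Trizol or RNeasy, which library had which not being stated, and was made into stranded libraries after removal of ribosomal RNA. Of the 23599 entries, 28 (0.119%) were named by a date and were set aside, and 3747 genes were at 0 throughout. Read totals are unknown, so no counting intervals are given; 11477 to 12502 genes reached 1 FPKM per library.

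From these values log2(FPKM + 1) was computed, genes that reached 1 FPKM in 3 or more libraries were kept, and limma 3.58.1 (R 4.3.3) was used to fit a mean for each group over the 18 libraries, leaving 12 residual degrees of freedom, with empirical Bayes moderation and a trend. All p-values are two-sided, and Benjamini-Hochberg adjustment ran over the 12809 genes tested, with calls at 0.05. The comparisons were 7 pairs of groups and 3 differences between siCHD4 effects. CHD4 and DNMT1 were also tested with an exact permutation test. The code was tested on simulated data. Gene positions are from GENCODE on GRCh37 and promoter windows from RefSeq on GRCh38.p14.

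Values in every library are given for genes called with a log2 change of at least 0.5 in a siCHD4 comparison within a background, or at least 1 in another pair of groups, and up to 4 called genes with the smallest p were named from the second Wnt list. The members and lists were chosen with earlier results of these data known. Alternative settings were no filter, a pseudocount of 0.1, median ratio rescaling, quantile normalization, a replicate block, fits on the compared groups only, each library left out, and 3 libraries left out together.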

Additional observations from a re-analysis of the deposited data

Results flagged for a closer look

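7 differences between siCHD4 effects were called by the limma test of the difference itself. For WNT16 the siCHD4 effect was higher by 1.65 with siDNMT1 than alone (adjusted p = 3.23e-05) and by 1.44 with decitabine than alone (adjusted p = 0.000547), both called with any single library left out. For DCLK1 the effect with decitabine minus that alone was -0.936 (adjusted p = 0.0228), and the effect with siDNMT1 minus that with decitabine was 0.782 (adjusted p = 0.0242). For CCND1 the effect with decitabine minus that alone was 0.802 (adjusted p = 0.0470). With siDNMT1 against decitabine the effect was higher by 0.974 for WNT3 (adjusted p = 0.0450) and by 0.669 for LRP5 (adjusted p = 0.0285). The calls of DCLK1, CCND1, WNT3 and LRP5 were each lost without some single libraries, and the comparisons with siCHD4 alone share their libraries. All 7 differences also compare schedules of siCHD4, and the tests of DCLK1 are descriptions.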

How the results depend on the processing

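Of the 88 calls of these genes over the 10 comparisons, 63 were kept in all 18 fits that left out a library, 25 were lost in at least 1, and none reversed. The number kept was 82 with a pseudocount of 0.1, 82 with no filter, 85 with median ratio rescaling, 73 with quantile normalization, 77 with the replicate block, 74 with the compared groups only and 84 with 3 libraries left out together, and none reversed. The median change of all genes lay between -0.026 and 0.019 with median ratio rescaling, and between -0.050 and 0.011 with quantile normalization.

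Counts that moved by over 1.5 times follow, with the count as reported in parentheses; the cause was not tested. With a pseudocount of 0.1, the difference between siDNMT1 and alone had 317 genes (528), that between siDNMT1 and decitabine 693 genes (1076) and 1 listed gene (3), and that between decitabine and alone 1 listed gene (3). With no filter, the first of these had 1093 genes. With quantile normalization it had 4 listed genes (1), and decitabine against alone had 1. With the replicate block, decitabine against alone had 1 listed gene and 97 genes (148), and siDNMT1 against decitabine 692 genes. Replicate numbers were not taken to pair libraries, since same-number libraries had residual correlations of -0.31 to 0.126, and libraries with other numbers of -0.211 to 0.239.

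With the compared groups only, siCHD4 alone had 3 listed genes (8) and 514 genes (2471), siCHD4 with decitabine 0 (4) and 147 (586), siDNMT1 2774 genes (1452) and decitabine 929 genes (2335). The differences had 2 listed genes for siDNMT1 against alone, 1 and 42 genes for decitabine against alone, and 7 and 1906 genes for siDNMT1 against decitabine. With 3 libraries left out together, an alternative chosen after seeing the data, siCHD4 alone had 14 and 4279, siCHD4 with decitabine 13 and 1703, siDNMT1 13 (8) and 3304, and siCHD4 with decitabine against control siRNA alone 18 (11). The differences then had 20 and 4549, 7 and 1420, and 15 and 3430.

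With each library left out, listed genes and all genes called ranged from 6 to 11 and 1484 to 3447 for siCHD4 alone, 18 to 21 and 5022 to 7161 with siDNMT1, and 2 to 8 and 295 to 1240 with decitabine. Against control siRNA alone they ranged from 6 to 11 and 890 to 2260 for siDNMT1, 5 to 12 and 1313 to 3127 for decitabine, 19 to 25 and 6553 to 8251 for siCHD4 with siDNMT1, and 8 to 15 and 3023 to 5364 for siCHD4 with decitabine. The differences ranged from 1 to 12 and 320 to 2557 for siDNMT1 against alone, 1 to 4 and 71 to 303 for decitabine against alone, and 0 to 8 and 308 to 2334 for siDNMT1 against decitabine. The depth of the libraries is unknown, which limits what can be said of genes under 1 FPKM.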
